A study of Mus musculus with 17 samples.

Results

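The genes described are 44 activity-regulated immediate early genes, read out here in the hippocampus of control and epileptic mice. Neurons switch such genes on after strong firing, many of them within minutes. The 44 were named by gene symbol with no cutoff on a measured value, though the list was drawn up with earlier results of these data known. All 44 were found among the 55450 genes of the count lists, and all 44 were among the 17615 genes that passed the filter on low counts and were tested. Polyadenylated RNA of the hippocampus was sequenced in 17 libraries of adult mice. Kainic acid, a glutamate receptor agonist that sets off status epilepticus and later spontaneous seizures, was injected into the right amygdala of the mice in the epileptic groups, and control mice had a sham procedure. The groups were libraries of control mice given sgLacZ (n = 5), of epileptic mice given sgLacZ (n = 6) and of epileptic mice given sgKcna1 (n = 6). CRISPR activation (CRISPRa) uses a Cas9 that cannot cut, fused to an activator domain and led by a guide RNA to a promoter. The sgKcna1 guide targets the promoter of Kcna1, which encodes the potassium channel subunit Kv1.1, and sgLacZ targets a bacterial gene that mice lack. Animals of every group, the controls included, were C57BL/6J of either sex, 2 to 3 months old at surgery, received the AAV9 vectors in the right ventral hippocampus and later ate a doxycycline diet that turns the activator on. The doxycycline-dependent transactivator was driven by a Camk2a promoter, which favours excitatory neurons, so the libraries, made from whole tissue, mix cells that could express the activator with cells that could not. Hippocampi were collected at the end of the study, after behavioural tests, and the time from the last test or seizure to collection is not given in the sources used here.

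Immediate early genes in the strict sense need no new protein synthesis to be transcribed, which need not hold for every gene on the list. Calcium entry through NMDA receptors and voltage-gated channels activates kinases that phosphorylate CREB, bound at cAMP response elements, and the ternary complex factors that sit with SRF at serum response elements, and MEF2 factors add to the response. The first products include transcription factors of the Fos, Egr and Nr4a families and Npas4, which turn on later genes, and effectors such as Arc and the short form of Homer1, which act at the synapse. Dual-specificity phosphatases and other induced inhibitors switch the signal off again, and secreted proteins carry it to neighbouring cells. In the hippocampus seizures are a strong inducer of most of these genes. The transcripts of many are short-lived, so that their level reflects the time since the last strong activity as well as its size.

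The promoter table from RefSeq (GRCm38.p6) held 46 windows of 300 bases, from 250 before to 50 after a transcription start, for 35 of the 44 genes. The core of the cAMP response element, TGACG on either strand, was present in 34 of the 46 windows (73.9%), against 20.8% of all 32851 windows in the table. By gene, 27 of 35 had at least 1 window with it (77.1%), against 23.0% of all 27025 genes. The full palindrome TGACGTCA, in which TGACG is read on both strands, was present in 7 of the 46 windows (15.2%) against 1.79% of all windows. CArG boxes, the core of serum response elements, were present in 5 of the 46 windows (10.9%), which belong to Dusp5 and Egr2, against 1.63% of all windows. Counted by gene this was 2 of 35 (5.71%) against 1.81% of all genes. The EGR site GCGGGGGCG was present in 5 of the 46 (10.9%) against 2.91%, the AP-1 site TGANTCA in 1 (2.17%) against 7.81%, and TATAAA in 7 (15.2%) against 13.6%. Windows of 1 gene can overlap, and a match in these letters is a description of the sequence only. Promoters are shown as examples for Fos, Npas4, Nr4a1, Arl4d and Homer1. Fos and Npas4 were among the 3 genes with the largest spread within groups. Nr4a1 shared with them the top library among the controls and among epileptic sgKcna1 mice. Arl4d and Homer1 had their lowest group mean in epileptic sgLacZ mice. Egr2, with the largest spread, and Csrnp1, also lower in epileptic sgLacZ mice, are not shown. The promoters shown lie at chr12:85473640-85473939 (plus strand, Fos), chr19:4989922-4990221 (minus strand, Npas4), chr15:101266596-101266895 (plus strand, Nr4a1), chr11:101665291-101665590 (plus strand, Arl4d) and chr13:93303507-93303806 (plus strand, Homer1) in GRCm38.p6. Capitals mark TGACG or its reverse complement CGTCA, and each sequence is written 5′ to 3′ on the strand of its gene.
Fos: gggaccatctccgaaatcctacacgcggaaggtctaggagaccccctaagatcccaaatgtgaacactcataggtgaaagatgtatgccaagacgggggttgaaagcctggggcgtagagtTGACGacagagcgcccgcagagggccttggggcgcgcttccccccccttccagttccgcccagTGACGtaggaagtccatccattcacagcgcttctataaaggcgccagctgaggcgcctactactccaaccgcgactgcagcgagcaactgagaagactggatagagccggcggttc
Npas4: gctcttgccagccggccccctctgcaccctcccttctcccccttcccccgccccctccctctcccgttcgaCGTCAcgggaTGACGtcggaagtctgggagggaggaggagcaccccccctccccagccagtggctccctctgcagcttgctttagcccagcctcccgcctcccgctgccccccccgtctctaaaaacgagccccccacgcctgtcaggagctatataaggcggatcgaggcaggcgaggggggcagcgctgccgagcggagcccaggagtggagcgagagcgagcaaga
Nr4a1: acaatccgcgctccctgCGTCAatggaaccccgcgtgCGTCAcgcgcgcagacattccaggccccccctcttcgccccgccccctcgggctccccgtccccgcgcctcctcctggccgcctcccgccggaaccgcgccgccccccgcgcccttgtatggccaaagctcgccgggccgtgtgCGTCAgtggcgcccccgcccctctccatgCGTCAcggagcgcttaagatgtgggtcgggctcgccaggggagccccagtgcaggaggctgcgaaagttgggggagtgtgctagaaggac
Arl4d: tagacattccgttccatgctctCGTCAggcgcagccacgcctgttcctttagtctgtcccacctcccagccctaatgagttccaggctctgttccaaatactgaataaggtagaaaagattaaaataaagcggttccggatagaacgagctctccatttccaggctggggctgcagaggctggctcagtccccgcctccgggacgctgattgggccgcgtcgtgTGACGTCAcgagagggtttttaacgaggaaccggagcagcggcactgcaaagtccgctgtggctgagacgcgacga
Homer1: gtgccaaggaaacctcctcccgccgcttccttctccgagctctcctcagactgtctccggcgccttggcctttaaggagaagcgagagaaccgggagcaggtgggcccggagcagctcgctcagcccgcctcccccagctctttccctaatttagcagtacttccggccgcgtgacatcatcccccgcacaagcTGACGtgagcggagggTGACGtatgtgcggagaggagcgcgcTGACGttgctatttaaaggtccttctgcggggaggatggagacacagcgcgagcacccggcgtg
Fos held 2 copies of the core, starting at -129 and -66 from the transcription start, and Npas4 held 2, at -179 and -169. Nr4a1 held 4 copies. Homer1 held 3, at -56, -40 and -14, and Arl4d held 3, of which 2 make up the full palindrome at -26.

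Reads in genes ran from 11839240 to 28311328 per library, and the least abundant member in any library, Egr2, still had 8 reads. Levels are given in CPM, read counts divided by library size, with sizes adjusted by TMM (a trimmed mean of log ratios between libraries), and a difference is called when the adjusted p of edgeR's quasi-likelihood test, corrected over all 17615 genes, is under 0.05. Kcna1, the gene targeted by the guide, measured 13.9, 15.1, 18.7, 19.5, 29.5 and 132.5 CPM in the 6 epileptic sgKcna1 libraries, 16.9, 18.5, 25.3, 30.0, 33.3 and 56.7 in the epileptic sgLacZ libraries and 25.5, 33.7, 34.6, 37.6 and 44.0 in the controls. Only library 12 of the libraries labelled sgKcna1 stood above the sgLacZ libraries for Kcna1, and the log2 fold change between the epileptic groups was 0.32 (adjusted p = 0.706). Library 12 was also the shallowest, with 11839240 reads in genes and 41.5% of reads unmapped, against 11.0% to 27.7% in the other 16 libraries. In 6 of the 17 libraries (2 control, 1 epileptic sgLacZ and 3 epileptic sgKcna1) both Xist and 4 Y-linked genes together exceeded 2 CPM, transcripts that normally come from female and from male cells respectively. Whether each library came from 1 mouse cannot be told from the labels, so n counts libraries and the number of independent mice is uncertain. The Y-linked sum exceeded Xist in 3 of 5 control, 2 of 6 epileptic sgLacZ and 4 of 6 epileptic sgKcna1 libraries, so this call was not balanced over the groups. Fits with sex as a covariate used it as a yes or no value, also for libraries that held both kinds of reads. Excitatory neuron markers (Slc17a7, Camk2a, Neurod6, Prox1, Wfs1, Neurod2) summed to 3320 to 5479 CPM, and none was at 0 in any library.

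Immediate early genes differed between epileptic sgLacZ mice and controls no more often than all tested genes, and their fold changes leaned downward. In epileptic sgLacZ mice 3 of the 44 genes were called, against 11% of all tested genes: Dusp4 rose (7.26% of all genes rose), and Csrnp1 and Homer1 fell (3.76% of all genes fell). The best-known members, Fos, Arc, Egr1, Npas4 and Nr4a1, were not called, and their levels overlapped widely between groups. Of the 44 log2 fold changes 15 were positive and 29 negative, with a median of -0.16 beside 0.02 over all tested genes. By edgeR at an unadjusted p under 0.05 there were 15 of 44 genes, 5 higher and 10 lower, or 34.1% against 34.7% of all tested genes. Over all genes 18.8% were higher and 15.9% lower at that level. Without control library 23, 5 were higher and 4 lower, beside 32.1% of all genes in either direction. The median there was -0.11, with 16 positive. Without the libraries that held both Xist and Y-linked reads, 4 were higher and 5 lower, beside 36.2% of all genes. The median in that fit was -0.07, with 17 positive. Without epileptic sgLacZ library 7 it was -0.23, with 13 positive. DESeq2 called 7 of the 44 beside 20.6% of all genes, and voom called 13 beside 41.4%. The libraries are bulk tissue, so fewer cells expressing a gene and less RNA per cell cannot be told apart.

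In epileptic mice given sgKcna1 none of the 44 genes was called against epileptic sgLacZ mice, and edgeR called none of the 17615 tested genes. DESeq2 called 2 of the 44, Cyr61 and Homer1, and 0.761% of all genes, and voom from limma, with weights for library quality, called none of the 44 and 0.0681% of all genes. For none of the 44 did the 2 epileptic groups not overlap, against 0.483% of all genes. The fold changes leaned upward: 33 of 44 were positive, with a median of 0.25 beside -0.0059 over all tested genes. At an unadjusted p under 0.05 edgeR gave 14 genes higher and 3 lower, 38.6% of the members against 19.2% of all genes. For the higher direction alone the background was 8.69% of all genes, and for the lower direction 10.5%. Without libraries 3 and 12 of the sgKcna1 group, 7 genes were higher and 1 was lower at that level, beside 3.75% of all genes higher and 9.42% in either direction in that fit. There 26 of the 44 fold changes were positive, with a median of 0.13. With the unmapped share of each library as a covariate 29 were positive, with a median of 0.15.

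Against controls, epileptic mice given sgKcna1 had no called member by edgeR, DESeq2 or voom, and edgeR called none of all genes. At an unadjusted p under 0.05 there were 4 of 44 genes, Nptx2, Maff and Fosb higher (4.29% of all genes were) and Nr4a3 lower (2.48%), against 6.77% of all genes in either direction. DESeq2 called 0.221% and voom 0.403% of all genes. The median log2 fold change was 0.11 beside 0.02 over all genes, with 31 of 44 positive. Without sgKcna1 library 3 this median was -0.036, with 21 positive. Without libraries 3 and 12 it was -0.058, with 13 positive. Without control library 23 it was 0.21, with 33 positive. Without the libraries that held both Xist and Y-linked reads it was 0.18, with 32 positive. In that fit edgeR gave 13 genes higher and 2 lower at an unadjusted p under 0.05. Of all genes in that fit 5.80% were higher, and 9.51% differed in either direction. The 3 comparisons share groups of libraries and are not independent of each other.

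**Figure D1:**
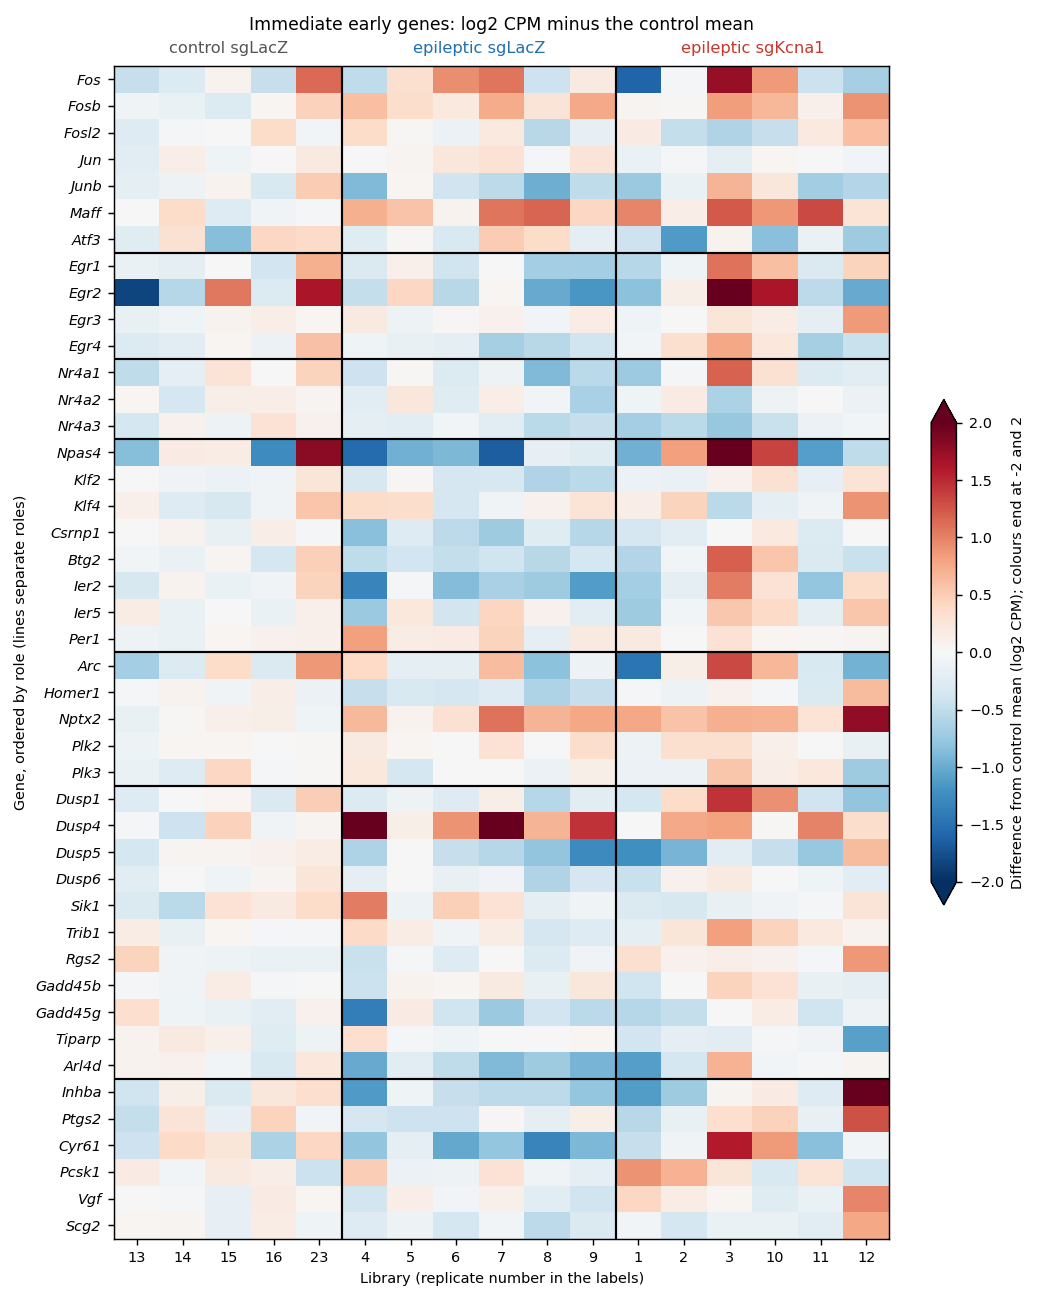
Each cell is the log2 CPM of 1 gene in 1 library minus the mean log2 CPM of the 5 control libraries, with genes in rows by role and the 17 libraries in columns by group (red above, blue below the control mean; colours end at -2 and 2). Library 3 of the epileptic sgKcna1 group is red for 34 of the 44 genes, and control library 23 is red for 32.

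**Figure D2:**
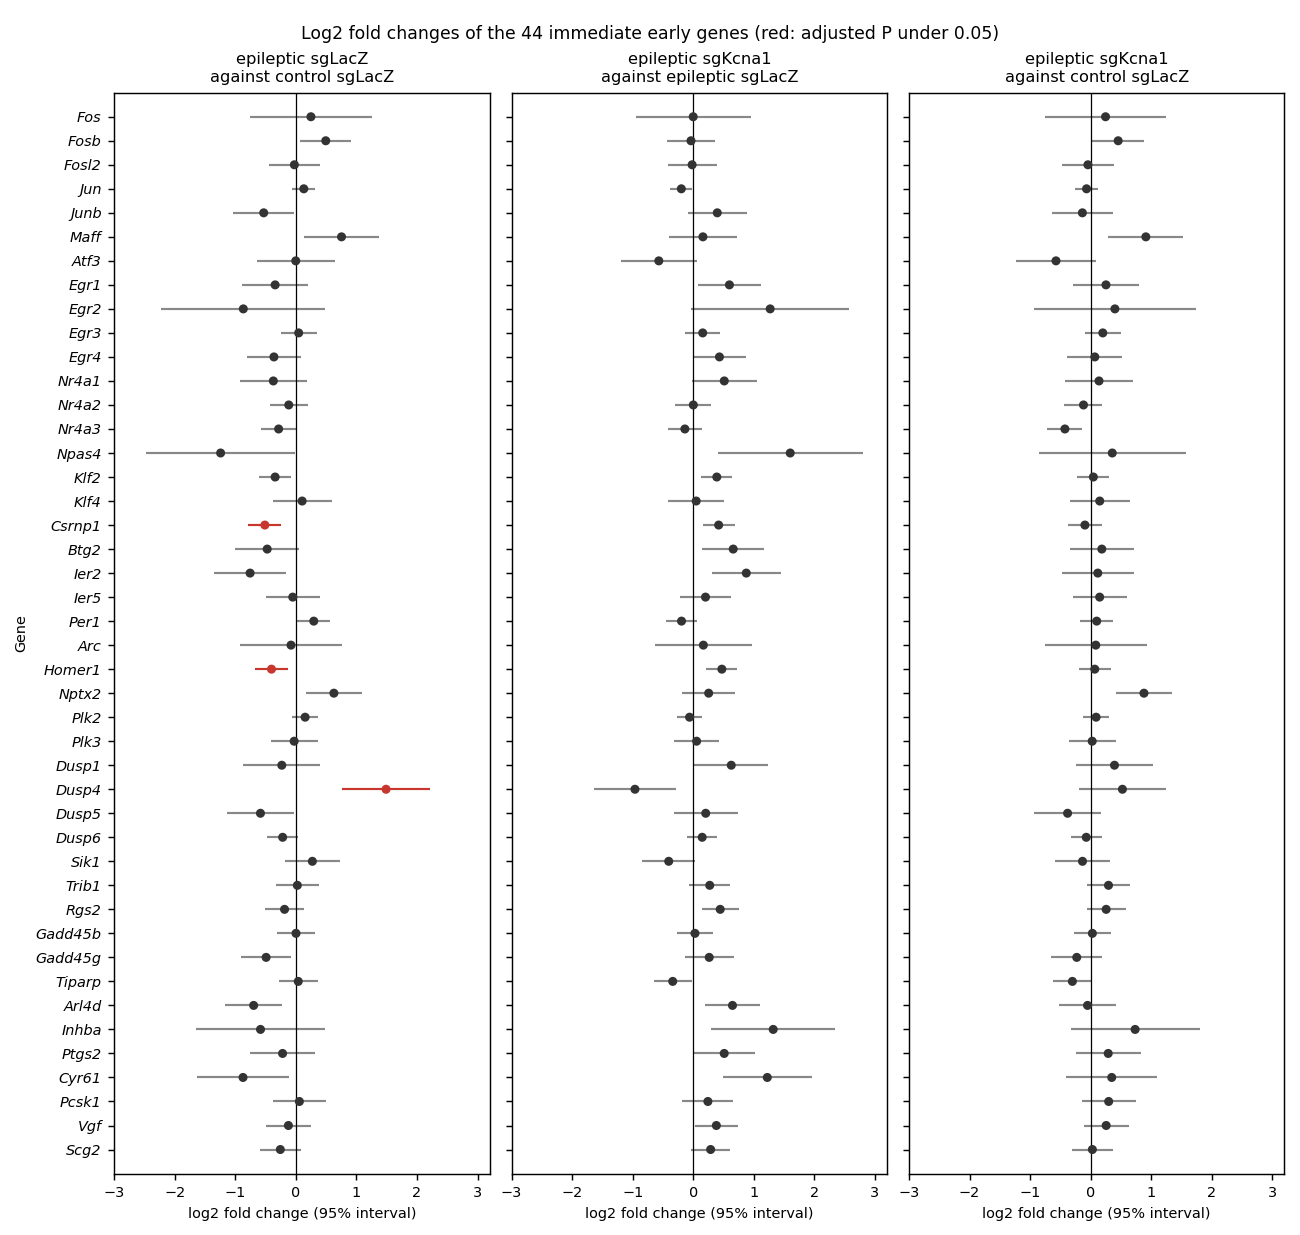
Points are edgeR log2 fold changes of the 44 genes with 95% intervals in each of the 3 comparisons, and red marks an adjusted p under 0.05. Dusp4, Csrnp1 and Homer1 are the red points, all in the comparison of epileptic sgLacZ with control mice.

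The AP-1 and ATF factors, which bind DNA as dimers of Fos, Jun, Maf or ATF proteins, had no called member among 7 in any comparison, with 2 higher and 1 lower at an unadjusted p under 0.05 in epileptic sgLacZ against control mice by edgeR. The shares over all tested genes at that level were 18.8% higher and 15.9% lower. Fos, the usual marker of recently active neurons (chromosome 12, 85473890 to 85477274, GRCm38.p6), measured 12.0, 12.0, 13.6, 17.2 and 36.1 CPM in the 5 controls. It measured 11.5 at the lowest, 19.6 at the median and 34.6 at the highest in epileptic sgLacZ mice and 5.36 at the lowest, 14.1 at the median and 55.5 at the highest in epileptic sgKcna1 mice. The groups overlapped, and the lowest and the highest of all 17 values both came from sgKcna1 mice. The log2 fold change of Fos was 0.25 in epileptic sgLacZ mice against controls, with a 95% interval of -0.75 to 1.25 and an adjusted p of 0.74. It was -0.0013 between the epileptic groups, with an interval of -0.95 to 0.95, and its sign there changed with the scaling. Fosb, whose truncated product accumulates under repeated activity, measured 4.64, 5.12, 5.36, 5.80 and 7.78 CPM in controls, 6.50 at the lowest, 7.94 at the median and 9.65 at the highest in epileptic sgLacZ mice and 5.71 at the lowest, 7.51 at the median and 10.6 at the highest in epileptic sgKcna1 mice. All but 1 control (library 23) lay below every epileptic sgLacZ library. The log2 fold change against controls was 0.49, SE 0.20, adjusted p = 0.0969 for epileptic sgLacZ mice and 0.45, SE 0.20, adjusted p = 0.711 for epileptic sgKcna1 mice, and neither passed the test.

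Maff, a small Maf protein without an activation domain, was a low-abundance member with 12 to 58 reads per library. It measured 0.753, 0.866, 0.884, 0.920 and 1.21 CPM in controls, 0.966 at the lowest, 1.49 at the median and 2.18 at the highest in epileptic sgLacZ mice and 1.01 at the lowest, 1.82 at the median and 2.42 at the highest in epileptic sgKcna1 mice. Of the 12 epileptic libraries 9 lay above all controls, the highest of which was library 14. The log2 fold change against controls was 0.75, SE 0.29, adjusted p = 0.0839 for sgLacZ and 0.91, SE 0.29, adjusted p = 0.61 for sgKcna1. Junb, a Jun partner with weaker activating function, measured 103, 113, 119, 133 and 182 CPM in controls, 64.6 at the lowest, 89.0 at the median and 131 at the highest in epileptic sgLacZ mice and 75.8 at the lowest, 101 at the median and 204 at the highest in epileptic sgKcna1 mice. Only library 5 of the epileptic sgLacZ group reached above the lowest control. Its log2 fold change there was -0.53, SE 0.24, adjusted p = 0.128, and the sum of its strand counts was 1.23 times its unstranded count, which shows reads shared with an overlapping gene. Jun, the main Fos partner, was steadier, at 102 to 135 CPM in controls, 116 to 146 in epileptic sgLacZ and 103 to 122 in epileptic sgKcna1 mice, and its log2 fold change between the epileptic groups was -0.20, SE 0.09, adjusted p = 0.241. Its strand counts summed to 1.07 times the unstranded count. Atf3, a stress-induced repressor, had 9 to 51 reads per library and 0.753 to 1.93 CPM in controls, and its log2 fold change of sgKcna1 mice against controls was -0.57, SE 0.31, adjusted p = 0.766. Fosl2 showed log2 fold changes of -0.03, -0.02 and -0.04 in the 3 comparisons.

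None of the 4 Egr zinc finger factors was called in any comparison. Egr1, which is needed for lasting synaptic change, measured 105, 119, 124, 137 and 222 CPM in controls, 84.9 at the lowest, 107 at the median and 147 at the highest in epileptic sgLacZ mice and 91.8 at the lowest, 157 at the median and 289 at the highest in epileptic sgKcna1 mice. The highest control (library 23) stood above every epileptic sgLacZ library, and sgKcna1 library 3 above all others. The log2 fold change between the epileptic groups was 0.60, SE 0.25, adjusted p = 0.228, and 0.38 without sgKcna1 library 3. Egr2, a low-abundance member in this tissue, had the largest spread within groups of all 44 genes, an SD of 1.16 on the log2 scale, larger than that of 98.1% of all tested genes. It measured 0.433, 1.17, 1.47, 3.80 and 5.72 CPM in controls, 0.743 at the lowest, 1.22 at the median and 2.40 at the highest in epileptic sgLacZ mice and 0.840 at the lowest, 1.57 at the median and 9.22 at the highest in epileptic sgKcna1 mice. The controls overlapped both epileptic groups, and sgKcna1 libraries 3 and 10 and control library 23 held the top values. Its log2 fold change between the epileptic groups, 1.27, SE 0.62, adjusted p = 0.266, had an interval of -0.03 to 2.57 and was 0.64 without sgKcna1 library 3. Egr3, which acts in memory and in muscle spindle development, varied less, at 77.8, 80.8, 88.8, 90.6 and 94.0 CPM in controls and 80.6 at the lowest, 89.4 at the median and 97.5 at the highest in epileptic sgLacZ mice. In epileptic sgKcna1 mice 5 libraries lay between 75.5 and 102 CPM and library 12 at 156. The log2 fold change of Egr3 between epileptic sgLacZ and control mice was 0.05, with an interval of -0.25 to 0.34. Egr4 measured 35.8 to 65.1 CPM in controls, 27.3 to 40.9 in epileptic sgLacZ mice and 27.3 to 74.0 in epileptic sgKcna1 mice, with adjusted p of 0.236 and 0.26 in the first and second comparison.

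The Nr4a orphan nuclear receptors are transcription factors for which no ligand need is known, and none of the 3 was called by edgeR in any comparison. Nr4a1 measured 45.4, 56.1, 64.0, 77.6 and 87.8 CPM in controls, 35.1 at the lowest, 50.9 at the median and 65.3 at the highest in epileptic sgLacZ mice and 39.1 at the lowest, 58.9 at the median and 147 at the highest in epileptic sgKcna1 mice. Library 3 alone carried the top sgKcna1 value, and the next was 80.0, within the control range. By edgeR the log2 fold change was -0.37, SE 0.27, adjusted p = 0.325 for epileptic sgLacZ against control mice and 0.51, SE 0.25, adjusted p = 0.273 between the epileptic groups, and 0.18 in the latter without library 3. Nr4a3 measured 57.2, 67.8, 76.9, 77.0 and 88.6 CPM in controls, 50.1 at the lowest, 62.5 at the median and 69.7 at the highest in epileptic sgLacZ mice and 43.2 at the lowest, 51.8 at the median and 69.9 at the highest in epileptic sgKcna1 mice. Of the 6 sgKcna1 libraries 4 lay below every control. For Nr4a3 the log2 fold change of sgKcna1 mice against controls was -0.42, SE 0.14, adjusted p = 0.615, and that of epileptic sgLacZ mice was -0.29, SE 0.14, adjusted p = 0.148. In the latter comparison Nr4a3 was called as lower with sex as a covariate, and it was among the genes called by voom. Nr4a2, a factor best known from dopamine neurons, had a log2 fold change of -0.12 in epileptic sgLacZ mice (interval -0.43 to 0.20) and ranges of 52.1 to 73.2, 42.6 to 77.5 and 42.8 to 74.6 CPM in the 3 groups.

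Among 8 other nuclear regulators, Csrnp1 fell in epileptic sgLacZ mice and no other was called in any comparison. By edgeR at an unadjusted p under 0.05, Csrnp1, Npas4, Klf2 and Ier2 were lower and Per1 higher in epileptic sgLacZ mice than in controls, and Csrnp1, Npas4, Klf2, Ier2 and Btg2 were higher in epileptic sgKcna1 than in epileptic sgLacZ mice. Among all tested genes 15.9% were lower and 18.8% higher in the first of these comparisons, and 8.69% were higher in the second. Csrnp1, a cysteine- and serine-rich nuclear protein induced by axin (chromosome 9, 119971163 to 119984742), measured 15.1, 16.2, 16.6, 17.6 and 18.3 CPM in controls and 9.30 at the lowest, 11.5 at the median and 14.2 at the highest in epileptic sgLacZ mice. Every epileptic sgLacZ library lay below every control, which held for 2 of the 44 genes (the other was Homer1) against 4.39% of all tested genes that did not overlap in either direction and 2.4% that were lower. For Csrnp1 the log2 fold change was -0.51, SE 0.13, adjusted p = 0.0346, and the exact permutation test of the 2 groups gave p = 0.00649 (0.0833 after adjustment over the 66 gene and comparison pairs so tested). Csrnp1 entered that test because of its small edgeR p, so the permutation p is not an independent check. In epileptic sgKcna1 mice Csrnp1 measured 13.2 at the lowest, 15.5 at the median and 19.2 at the highest, overlapping both other groups, and its log2 fold change was 0.42, SE 0.13, adjusted p = 0.213 against epileptic sgLacZ mice and -0.09 against controls. Csrnp1 was no longer called when any 1 of control libraries 13, 14, 16 or 23 or epileptic sgLacZ libraries 4, 7 or 9 was left out (adjusted p of at most 0.0923, log2 fold change between -0.57 and -0.45 over all 17 such fits). Csrnp1 was also not called with the unmapped share of each library as a covariate (log2 fold change -0.41, adjusted p = 0.0697) or with sex as a covariate (adjusted p = 0.0515).

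Npas4, a neuron-specific factor that responds to calcium and shapes inhibitory synapses (chromosome 19), measured 2.73, 3.68, 7.40, 7.49 and 23.6 CPM in controls, 2.08 at the lowest, 3.48 at the median and 5.94 at the highest in epileptic sgLacZ mice and 3.08 at the lowest, 8.25 at the median and 28.8 at the highest in epileptic sgKcna1 mice. The epileptic sgLacZ libraries lay in the lower range of both other groups, and the highest values were sgKcna1 library 3, control library 23 and sgKcna1 library 10. By edgeR the log2 fold change was -1.24, SE 0.59, adjusted p = 0.141 for epileptic sgLacZ against control mice and 1.60, SE 0.57, adjusted p = 0.213 between the epileptic groups. Its SD within groups was 1.08 on the log2 scale, the second largest of the 44 genes. Without sgKcna1 library 3 the log2 fold change between the epileptic groups was 1.09, and without control library 23 that of epileptic sgLacZ against control mice was -0.50.

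Ier2, an immediate early protein of the nucleus, measured 18.8, 21.6, 22.6, 24.9 and 32.4 CPM in controls, 9.47 at the lowest, 13.7 at the median and 23.0 at the highest in epileptic sgLacZ mice and 13.8 at the lowest, 24.9 at the median and 48.3 at the highest in epileptic sgKcna1 mice. Only library 5 of the epileptic sgLacZ group reached into the control range. For Ier2 the log2 fold change was -0.76, SE 0.28, adjusted p = 0.075 against controls and 0.88, SE 0.27, adjusted p = 0.213 between the epileptic groups. Klf2, a Krüppel-like factor that is also abundant in endothelium, measured 20.5, 21.2, 21.2, 22.1 and 26.3 CPM in controls, 14.6 at the lowest, 17.6 at the median and 22.5 at the highest in epileptic sgLacZ mice and 19.9 at the lowest, 21.9 at the median and 27.5 at the highest in epileptic sgKcna1 mice, with -0.34, SE 0.13, adjusted p = 0.0726 as its log2 fold change against controls. Summed endothelial markers ran in the same libraries from 187 to 254 CPM in controls, 145 to 261 in epileptic sgLacZ mice and 165 to 319.6 in epileptic sgKcna1 mice, and none of the 6 endothelial markers was called. Their part in the level of Klf2 was not tested. Btg2, an antiproliferative gene, measured 16.3, 19.1, 20.2, 21.7 and 29.2 CPM in controls and 14.2 to 16.3 in epileptic sgLacZ mice, the narrowest range of the 3 groups, while sgKcna1 library 3 reached 48.0. Per1, a clock gene that activity also induces, measured 44.0, 45.0, 49.3, 51.0 and 51.3 CPM in controls, 42.6 at the lowest, 53.9 at the median and 84.6 at the highest in epileptic sgLacZ mice and 48.0 at the lowest, 49.6 at the median and 58.7 at the highest in epileptic sgKcna1 mice. Library 4 held the top value of Per1, and the log2 fold change of epileptic sgLacZ against control mice was 0.29, SE 0.13, adjusted p = 0.122, and 0.16 without library 4. Klf4, a Krüppel-like factor, and Ier5, a regulator of the heat shock response, had log2 fold changes of 0.10 (adjusted p = 0.782) and -0.05 (adjusted p = 0.882) in that comparison.

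Of 5 synaptic effectors, Homer1 fell in epileptic sgLacZ mice and the others were not called in any comparison. Homer1, a scaffold of the postsynaptic density (chromosome 13, 93303757 to 93405129), measured 103, 105, 109.7, 117 and 121 CPM in controls and 72.5 at the lowest, 84.6 at the median and 92.5 at the highest in epileptic sgLacZ mice. Every epileptic sgLacZ library lay below every control, and the difference was a log2 fold change of -0.40, SE 0.13, adjusted p = 0.0489. The exact permutation test gave p = 0.00216, the smallest that 462 splits allow, and 0.0833 after adjustment over 66 pairs. In epileptic sgKcna1 mice Homer1 measured 90.4 at the lowest, 109 at the median and 172 at the highest, with 5 libraries at or below 118 and library 12 at 172. Between the epileptic groups the log2 fold change of Homer1 was 0.47, SE 0.12, adjusted p = 0.213, and 0.33 without library 12. Against controls it was 0.07, with an interval of -0.20 to 0.34. The counts cover the whole gene, so the activity-induced short isoform cannot be told from the constitutive long ones. Homer1 was called in 3 of the 17 fits that each left out 1 library, those without sgKcna1 library 11, sgKcna1 library 12 or epileptic sgLacZ library 5, and its adjusted p reached 0.116 without control library 14. Homer1 was also not called with the unmapped share as a covariate (log2 fold change -0.26, adjusted p = 0.13), with sex as a covariate (adjusted p = 0.0522) or with no filter on low counts (adjusted p = 0.0732).

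Nptx2, a secreted pentraxin that gathers AMPA receptors on interneurons (chromosome 5, 144545887 to 144557478), measured 18.3, 19.1, 20.5, 21.7 and 22.0 CPM in controls, 21.3 at the lowest, 32.0 at the median and 43.2 at the highest in epileptic sgLacZ mice and 24.5 at the lowest, 33.0 at the median and 69.8 at the highest in epileptic sgKcna1 mice. Only library 5 of the epileptic sgLacZ group was within the control range, and every sgKcna1 library lay above every control, the only one of the 44 genes in that comparison, against 0.562% of all genes in that direction and 1.14% in either. By edgeR the log2 fold change was 0.63, SE 0.22, adjusted p = 0.064 for epileptic sgLacZ and 0.88, SE 0.22, adjusted p = 0.389 for epileptic sgKcna1 mice against controls. It was 0.61 in the latter without library 12, and between the epileptic groups it was 0.25 (adjusted p = 0.472). With the unmapped share of each library as a covariate, Nptx2 was called in both comparisons with controls. Arc, whose protein drives AMPA receptor removal at active synapses, measured 44.4, 58.0, 59.1, 92.3 and 131 CPM in controls, 40.3 at the lowest, 64.8 at the median and 109.9 at the highest in epileptic sgLacZ mice and 25.7 at the lowest, 67.2 at the median and 179 at the highest in epileptic sgKcna1 mice. Both extremes were again sgKcna1 libraries, number 1 the lowest and number 3 the highest. Its log2 fold changes were -0.08, 0.17 and 0.08 in the 3 comparisons, with intervals as wide as -0.92 to 0.76, so that changes of this size were not detectable. The kinases Plk2 and Plk3, which act in the downscaling of synapses, had adjusted p of 0.294 and 0.927 in epileptic sgLacZ against control mice, and the strand counts of Plk3 summed to 1.13 times its unstranded count.

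**Figure D3:**
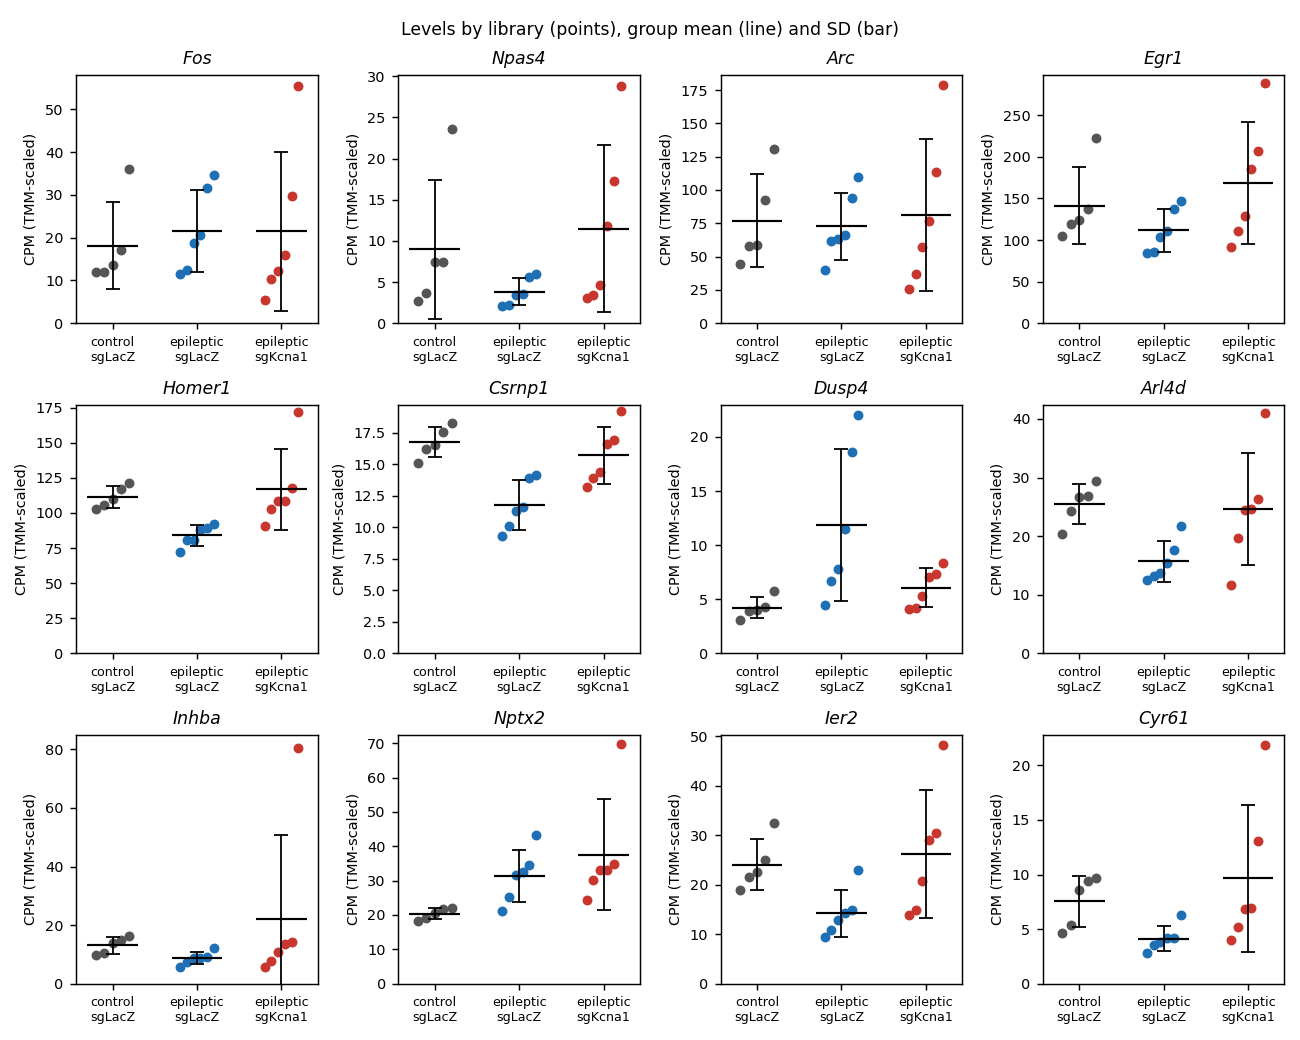
Levels of 12 genes in TMM-scaled CPM (vertical axes start at 0) in each library, by group, with the group mean as a line and the SD as a bar; the lower bar of Inhba in epileptic sgKcna1 mice runs past 0 and is cut there. For Homer1 and Csrnp1 the epileptic sgLacZ points lie below all control points, while for Fos, Npas4, Arc and Egr1 the 3 groups overlap.

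Of 11 feedback and stress genes, Dusp4 rose in epileptic sgLacZ mice. Dusp4, a nuclear phosphatase that inactivates MAP kinases (chromosome 8), measured 3.08, 3.93, 4.06, 4.30 and 5.77 CPM in controls. It measured 4.49, 6.68, 7.77, 11.5, 18.6 and 22.0 CPM in the 6 epileptic sgLacZ libraries. Libraries 4 and 7 held the top values, and library 5 lay within the control range. For Dusp4 the log2 fold change was 1.49, SE 0.35, adjusted p = 0.0327, a 2.81-fold difference with an interval of 0.76 to 2.22 on the log2 scale. In epileptic sgKcna1 mice Dusp4 measured 4.13, 4.19, 5.32, 7.09, 7.33 and 8.37. That range overlapped both other groups. By edgeR the log2 fold change was -0.96, SE 0.32, adjusted p = 0.213 between the epileptic groups and 0.53, SE 0.35, adjusted p = 0.771 against controls. Between epileptic sgLacZ mice and controls it was 1.22 without epileptic sgLacZ library 4 and 1.32 without library 7, and Dusp4 was not called without either of these, without epileptic sgLacZ library 9 or without any 1 of control libraries 13, 14, 16 and 23 (adjusted p of at most 0.0923). The unmapped share of reads ran from 11.0% to 24.1% in epileptic sgLacZ libraries and 19.5% to 27.7% in controls, and it was lowest in libraries 4 and 7 (11.0% and 15.8%). With that share as a covariate the log2 fold change of Dusp4 was 1.07 (adjusted p = 0.0676), and its part in the level of Dusp4 was not tested further.

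None of the other 3 Dusp genes was called in any comparison. Dusp1, which acts on stress kinases as well, measured 18.6, 19.0, 22.8, 23.5 and 31.9 CPM in controls, 15.3 at the lowest, 19.2 at the median and 24.5 at the highest in epileptic sgLacZ mice and 13.1 at the lowest, 23.5 at the median and 62.0 at the highest in epileptic sgKcna1 mice. Libraries 3 and 10 held the top sgKcna1 values and library 12 the lowest of all 17. For Dusp1 the log2 fold change was 0.63, SE 0.29, adjusted p = 0.253 between the epileptic groups, and 0.29 at the lowest when 1 library was left out. Dusp5, an ERK phosphatase, measured 25.8, 34.2, 34.4, 35.2 and 36.6 CPM in controls, 13.6 at the lowest, 21.9 at the median and 32.6 at the highest in epileptic sgLacZ mice and 14.0 at the lowest, 21.8 at the median and 51.3 at the highest in epileptic sgKcna1 mice, with -0.59, SE 0.26, adjusted p = 0.124 as its log2 fold change in epileptic sgLacZ mice. Its strand counts summed to 1.12 times the unstranded count. Dusp6, the cytoplasmic ERK phosphatase, had a log2 fold change of -0.22, SE 0.12, adjusted p = 0.209 there.

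Arl4d, a small GTPase of the Arf family (chromosome 11, 101665541 to 101667832), measured 20.4, 24.3, 26.6, 26.8 and 29.4 CPM in controls and 12.5 at the lowest, 14.6 at the median and 21.7 at the highest in epileptic sgLacZ mice. Library 5 was the 1 epileptic sgLacZ library that overlapped the controls. A log2 fold change of -0.70 (SE 0.22) had an adjusted p of 0.0504, just over the threshold. In epileptic sgKcna1 mice Arl4d measured 11.7 at the lowest, 24.6 at the median and 41.0 at the highest, and its log2 fold change was 0.65, SE 0.21, adjusted p = 0.213 against epileptic sgLacZ mice. Sik1, a kinase that restrains CREB coactivators, measured 6.33 to 11.9 CPM in controls, 8.06 to 18.9 in epileptic sgLacZ mice and 7.35 to 11.1 in epileptic sgKcna1 mice, and its log2 fold change between the epileptic groups was -0.41, SE 0.21, adjusted p = 0.284, and -0.20 without epileptic sgLacZ library 4. Tiparp, a poly(ADP-ribose) polymerase, measured 12.4 to 16.7 (median 13.2) CPM in epileptic sgLacZ mice and 6.16 to 12.8 (median 11.4) in epileptic sgKcna1 mice. The highest of the former was library 4 and the lowest of the latter library 12, and the log2 fold change was -0.34, SE 0.15, adjusted p = 0.238. Rgs2, an inhibitor of G protein signalling, ran from 46.4 to 63.1 CPM in epileptic sgLacZ mice and 62.0 to 116 in epileptic sgKcna1 mice, with a log2 fold change of 0.44, SE 0.15, adjusted p = 0.213. Trib1, a pseudokinase, reached its top value in sgKcna1 library 3 at 16.7 CPM and had a log2 fold change of 0.29, SE 0.17, adjusted p = 0.766 against controls, and 0.16 without that library. Gadd45b and Gadd45g, which take part in DNA demethylation and stress signalling, had log2 fold changes of 0.0014 and -0.49 in epileptic sgLacZ mice, with adjusted p of 0.995 and 0.0936.

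No member among the 6 secreted factors and their makers was called, and between the epileptic groups Inhba, Cyr61, Vgf and Ptgs2 were higher in sgKcna1 mice at an unadjusted p under 0.05 by edgeR. The share of all tested genes that were higher at that level was 8.69%. Inhba, which encodes the subunit of activin A, measured 9.74, 10.5, 14.0, 15.0 and 16.3 CPM in controls. It measured 5.79 at the lowest, 8.86 at the median and 12.1 at the highest in epileptic sgLacZ mice. In the 6 epileptic sgKcna1 libraries it measured 5.84, 7.80, 10.7, 13.4, 14.3 and 80.5. All sgKcna1 values but that of library 12 were within or below the control range. By edgeR the log2 fold change between the epileptic groups was 1.32, SE 0.49, adjusted p = 0.213, and 0.25 without library 12. Cyr61, a matrix protein now named Ccn1 (chromosome 3, 145646971 to 145649985), measured 4.60, 5.41, 8.57, 9.45 and 9.67 CPM in controls, 2.82 at the lowest, 3.98 at the median and 6.27 at the highest in epileptic sgLacZ mice and 4.00 at the lowest, 6.87 at the median and 21.8 at the highest in epileptic sgKcna1 mice. In the epileptic sgLacZ group 5 of 6 libraries lay below every control, and sgKcna1 libraries 3 and 10 lay above every control. For Cyr61 the log2 fold change was -0.87, SE 0.36, adjusted p = 0.0992 in epileptic sgLacZ against control mice and 1.22, SE 0.35, adjusted p = 0.213 between the epileptic groups, and 0.80 in the latter at the lowest when 1 library was left out.

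Vgf, a granin-family peptide precursor, measured 388, 425, 433, 449 and 485 CPM in controls, 329 at the lowest, 396 at the median and 476 at the highest in epileptic sgLacZ mice and 369 at the lowest, 465 at the median and 853 at the highest in epileptic sgKcna1 mice. Library 12 held the top value, and its log2 fold change between the epileptic groups was 0.38, SE 0.17, adjusted p = 0.239, and 0.18 without library 12. Scg2, the precursor of secretoneurin, measured 216, 228, 247, 252 and 266 CPM in controls, 167 at the lowest, 199.5 at the median and 233 at the highest in epileptic sgLacZ mice and 189 at the lowest, 220.0 at the median and 413 at the highest in epileptic sgKcna1 mice. Apart from library 12 the sgKcna1 libraries ran from 189 to 231, within the range of the other groups together. For Scg2 the log2 fold change was -0.26, SE 0.16, adjusted p = 0.258 in epileptic sgLacZ against control mice. Ptgs2, the inducible cyclooxygenase, reached 42.5 CPM in library 12, against at most 24.1 in the other 5 sgKcna1 libraries, with a log2 fold change of 0.51, SE 0.24, adjusted p = 0.259 between the epileptic groups. Pcsk1, the convertase that cuts peptide precursors, had a log2 fold change of 0.24 (adjusted p = 0.484).

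Within each group the top values of the members were shared among few libraries. Control library 23 was the highest of its 5 for 22 of the 44 genes, among them Fos, Fosb, Junb, Egr1, Egr2, Egr4, Nr4a1, Npas4, Arc and Dusp1. In the epileptic sgKcna1 group library 3 was the highest for 20 genes, among them Fos, Junb, Egr1, Egr2, Egr4, Nr4a1, Npas4, Arc, Dusp1 and Btg2. Library 12 was the highest for 15, among them Egr3, Homer1, Nptx2, Inhba, Ptgs2, Rgs2, Vgf and Scg2, and for Fos, Arc and Dusp1 it lay below its group's median. In the epileptic sgLacZ group the top values were spread over library 5 (14 genes), library 4 (11) and library 7 (10). Relative to the mean of the controls, the median difference over the 44 genes ran from -0.34 in sgKcna1 library 1, where 9 genes were above that mean, to 0.33 in sgKcna1 library 3, where 34 were. The SD within groups on the log2 scale had a median of 0.38 over the 44 genes beside 0.34 over all tested genes, with 1.16 for Egr2, 1.08 for Npas4, 0.88 for Fos, 0.84 for Inhba and 0.76 for Arc. The lowest was 0.13.

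**Figure D4:**
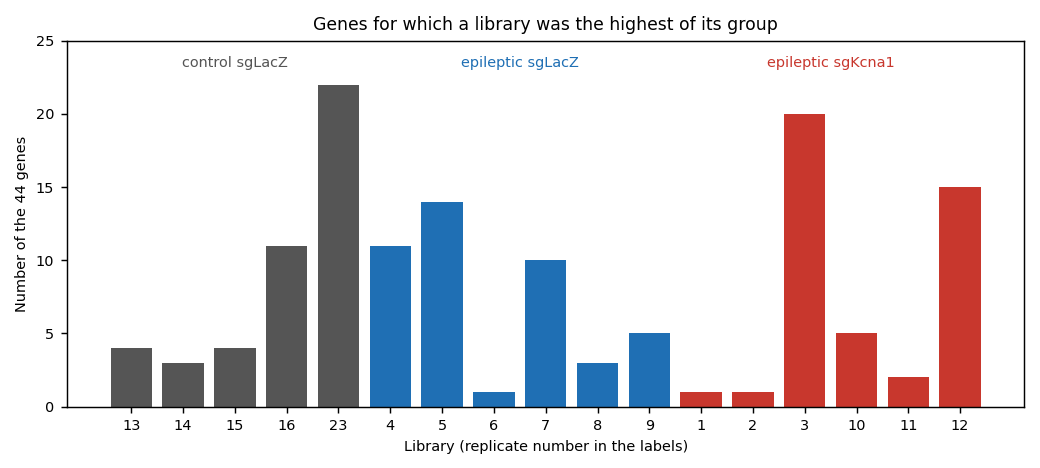
Bars count, out of 44 genes, those for which a library was the highest of its own group, with libraries on the horizontal axis in the colour of their group. Control library 23 (22 genes) and epileptic sgKcna1 libraries 3 (20) and 12 (15) hold the highest counts.

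Other activity-regulated genes, chosen from the same body of knowledge, were counted in the same way. Of 25 listed 24 were tested, and 2 fell in epileptic sgLacZ mice (Rasl11a, log2 fold change -0.83, adjusted p = 0.032, and Rheb, -0.38, adjusted p = 0.0464), beside 3.76% of all genes that fell. The median log2 fold change of the list was -0.27. Rasl11a, a Ras-like GTPase, Bdnf, a neurotrophin, and Fbxo33, an F-box protein, were lower in every epileptic sgLacZ library than in every control (3 of 24, beside 2.4% of all genes), and Bdnf (adjusted p = 0.142) and Fbxo33 (adjusted p = 0.0625) were not called. None was called between the epileptic groups, where 9 were higher and 1 lower at an unadjusted p under 0.05 (10 of 24, beside 19.2% of all genes) and the median was 0.24. None was called in epileptic sgKcna1 mice against controls. Of 23 genes of upstream signalling, 3 rose in epileptic sgLacZ mice, beside 7.26% of all genes that rose, and none fell. The 3 were Mef2d (log2 fold change 1.16, adjusted p = 0.0327), Mkl1 (0.65, adjusted p = 0.033) and Srf (0.71, adjusted p = 0.0403). They encode a MEF2 factor, a coactivator of SRF and SRF itself, and the median over the list was 0.0033. Between the epileptic groups none of the 23 was called, and Mef2c had the smallest p, with a log2 fold change of 1.01 and an adjusted p of 0.119. Of 10 clock genes Nr1d1 rose in epileptic sgLacZ mice (log2 fold change 1.23, adjusted p = 0.0346), beside 7.26% of all genes that rose, and the other 9 were not called.

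In the epilepsy comparison 6 cell type markers were called, out of lists of 3 to 6 tested genes each, beside 11% of all genes. Of all genes 7.26% rose and 3.76% fell. In epileptic sgLacZ mice Slc17a7 and Wfs1 (2 of 6 excitatory neuron markers), Aldh1l1 and Gfap (2 of 5 astrocyte markers) and Csf1r (1 of 5 microglial markers) rose, and Hba-a1 (1 of 3 blood markers tested) fell. Slc17a7, a vesicular glutamate transporter, had a log2 fold change of 0.77, and Gfap, an intermediate filament of astrocytes, of 0.60. Summed excitatory neuron markers ran from 3320 to 3914 CPM in controls, 3577 to 5479 in epileptic sgLacZ mice and 3409 to 4371 in epileptic sgKcna1 mice. None of the 6 inhibitory neuron, 5 oligodendrocyte, 6 endothelial and 5 choroid plexus markers was called. Summed inhibitory neuron markers ran from 1224 to 1532 CPM in controls, 819 to 1379.7 in epileptic sgLacZ mice and 995 to 1464 in epileptic sgKcna1 mice. Summed blood markers ran from 159 to 321 CPM, from 46.9 to 191 and from 86.2 to 379.7 in the same order. Summed choroid plexus markers varied within groups, from 1201 to 12532 CPM in controls, 4409 to 11446 in epileptic sgLacZ mice and 292 to 7829 in epileptic sgKcna1 mice. Epileptic sgLacZ library 5, which was nearest to the controls for Dusp4, Nptx2, Ier2, Junb and Arl4d, held its group's highest sums of blood (191 CPM), endothelial (261), oligodendrocyte (6776), microglial (229) and inhibitory neuron (1379.7) markers. Epileptic sgKcna1 library 12 held its group's highest sums of blood, endothelial, oligodendrocyte (10040.4) and microglial (265) markers. The part of these cell types in the levels of the immediate early genes was not tested.

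How many of the 44 genes were called rested on single libraries. In epileptic sgLacZ against control mice edgeR called none without any 1 of control libraries 13, 14, 16 and 23 or epileptic sgLacZ libraries 4, 7 and 9, and in each of those fits it called none of all tested genes. It called 2 without control library 15, epileptic sgLacZ library 6 or sgKcna1 libraries 2 or 10, 3 without epileptic sgLacZ library 8 or sgKcna1 libraries 1, 3 or 11, 8 without sgKcna1 library 12 (beside 27.1% of all genes) and 11 without epileptic sgLacZ library 5 (beside 31.3%), among them Nptx2, Ier2, Junb, Cyr61, Dusp5 and Arl4d. Between the epileptic groups 7 were called without epileptic sgLacZ library 5 (Homer1, Cyr61, Csrnp1, Ier2, Klf2 and Arl4d, which were higher, and Dusp4, which was lower), beside 8.54% of all genes, and none in the other 16 such fits. With the 6 libraries that held both Xist and Y-linked reads left out, none of the 44 was called in any comparison, and the genes at an unadjusted p under 0.05 numbered 9, 19 and 15 in place of 15, 17 and 4, beside 36.2%, 13.5% and 9.51% of all genes in those fits.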

How the data were processed

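RNA-seq counts were analysed for 17 mouse hippocampus libraries, grouped by the labels. The authors aligned reads to mm10 with STAR 2.7 and deposited raw read counts per gene, unstranded and for each strand, and tested them with DESeq2; the annotation release is not given in the sources used here. Labels and methods differ on whether the kit kept strand. The strand columns were nearly equal (reverse over forward 0.994 to 0.998), so the unstranded column was used, and reads of overlapping genes cannot be told apart. Each list held 55450 genes, and 89.7% of tested genes had a symbol. The 4 summary lines (unmapped reads and the like) stayed out of library sizes. Reads in genes ran from 11839240 to 28311328 per library, so that 3 reads, taken as the floor, correspond to 0.106 to 0.253 CPM; floors cover counting error only.

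Counts were filtered with filterByExpr, scaled by TMM and fitted with edgeR 4.0.16 (R 4.3.3) by the quasi-likelihood F test over all 17 libraries in 3 groups, two-sided, with Benjamini-Hochberg adjustment over the 17615 genes tested. Exact two-sided permutation tests used log2 CPM with a prior count of 2 for 66 gene and comparison pairs. Part of these pairs were picked for a small edgeR p in the same libraries, and the adjustment over the 66 does not correct for that. Alternatives were DESeq2 1.42.0, limma 3.58.1 voom with quality weights, DESeq2 size factors, no filter, strand sums, covariates (unmapped share, sex read from Xist and Y-linked genes), fits of the 2 groups compared, leaving out each library and, chosen after seeing the data, leaving out libraries with mixed Xist and Y-linked reads or sgKcna1 libraries 3 and 12. Library values and statistics were given for 15 genes always, for the 4 with the smallest p per direction and comparison and for the 3 with the largest spread within groups; other members were named after their values were seen. Members and lists were chosen with earlier results of these data known. The labels give separate samples, and p-values measure the spread between them. Promoter windows, searched for 6 motifs on both strands, came from RefSeq (GRCm38.p6). No entry there was matched for Arc, Nptx2, Ier2, Trib1, Vgf, Egr3, Egr1, Sik1 and Dusp4.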

Additional observations from a re-analysis of the deposited data

Results flagged for a closer look

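Of 90 groups of libraries tested (30 genes in 3 groups), 6 held a library whose gap to its nearest neighbour exceeded the 95% limit of Dixon's test. About 1 in 20 groups would pass it by chance if the genes were unselected. The 30 genes were named in part for a large spread or a small p, and they share libraries, so that rate need not hold here. In the epileptic sgKcna1 group library 12 stood apart for 4 genes: it was the highest for Inhba (80.5 CPM), Nptx2 (69.8 CPM) and Scg2 (413 CPM) and the lowest for Tiparp (6.16 CPM). This library also had the highest Kcna1 level (132.5 CPM), the fewest reads in genes (11839240) and the largest unmapped share (41.5%) of all 17, and the part of these in the levels of the 4 genes was not tested. In the epileptic sgLacZ group library 4 was apart for Tiparp (16.7 CPM), and in the control group library 13 was apart, as the lowest, for Dusp5 (25.8 CPM).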

How the results depend on the processing

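No paired analysis was possible because the groups share no replicate numbers. In epileptic sgLacZ against control mice the number of members called, 3 in the reported fit, was 7 by DESeq2 (20.6% of all genes), 13 by voom with quality weights (41.4%), 10 in a fit of the 2 groups alone (17.9%), 10 without sgKcna1 libraries 3 and 12 (24.6%), 2 with sex as a covariate (Dusp4 and Nr4a3; 2.93%), 1 with the unmapped share as a covariate (Nptx2; 2.43%) and 0 without the libraries with mixed Xist and Y-linked reads (0%), which also gave 9 at an unadjusted p under 0.05. Leaving out 1 library gave 0 to 11 called and 9 to 18 at an unadjusted p. Between the epileptic groups, 0 in the reported fit became 2 by DESeq2, and leaving out 1 library gave 0 to 7, while the 17 at an unadjusted p became 8 without libraries 3 and 12. In sgKcna1 against control mice the unmapped share gave 1 called (Nptx2), and the 4 at an unadjusted p became 15 without the mixed libraries. The cause was not tested.

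Single log2 fold changes changed sign as follows, and none of these was past the threshold in the reported fit. Between the epileptic groups Fos was 0.00579 by DESeq2, 0.00543 with its size factors, 0.00229 in the fit of 2 groups, 0.00936 from strand sums, 0.0663 with sex and 0.17 with the unmapped share as covariate, and Fosb was 0.0115 with sex. Without the mixed libraries Fos was 0.52 and Scg2 -0.00171 between the epileptic groups, Junb 0.36, Homer1 -0.0165 and Scg2 -0.19 in sgKcna1 against control mice, and Arc 0.28 in epileptic sgLacZ against control mice. With the unmapped share Egr3 was -0.0266, Nptx2 -0.0307 and Inhba -0.0526 between the epileptic groups, Inhba 0.0506 and Vgf 0.0669 in epileptic sgLacZ against control mice, and Inhba -0.00204 and Scg2 -0.0521 in sgKcna1 against control mice. Without sgKcna1 libraries 3 and 12 Egr3 was -0.0729, Arc -0.0867 and Nptx2 -0.0332 between the epileptic groups, and against controls Fos was -0.20, Egr1 -0.0689, Egr2 -0.0458, Egr3 -0.0257, Arc -0.17, Npas4 -0.0214, Nr4a1 -0.17, Homer1 -0.11, Inhba -0.44 and Scg2 -0.18. By voom Egr3 was -0.0172 and Nptx2 -0.0410 between the epileptic groups, and Homer1 -0.0797, Inhba -0.33 and Scg2 -0.17 against controls.

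Leaving out 1 library took sgKcna1 against control values through 0 for Arc (-0.31 to 0.36), Egr2 (-0.23 to 0.94), Fos (-0.30 to 0.65), Homer1 (-0.0819 to 0.13), Inhba (-0.34 to 0.95), Junb (-0.36 to 0.0152), Npas4 (-0.16 to 1.10), Nr4a1 (-0.19 to 0.27) and Scg2 (-0.19 to 0.10). Between the epileptic groups it did so for Arc (-0.23 to 0.35), Egr3 (-0.0195 to 0.22), Fos (-0.55 to 0.20), Fosb (-0.14 to 0.0417) and Nptx2 (-0.0157 to 0.37), and in epileptic sgLacZ against control mice for Arc (-0.23 to 0.20). Of the other settings, 657 single-gene values kept their direction and side of the threshold, 22 passed it and 9 fell short of it.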
